A study of Homo sapiens with 6 samples.

Results

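The genes described here are 46 genes of the kinetochore, the mitotic spindle and cytokinesis, chosen by symbol from a table of 35615 gene symbols, and all 46 were present and passed the filter on low counts (14543 genes tested). Their counts came from RNA sequencing of K562, an established human cell line from a patient with chronic myeloid leukaemia whose growth is driven by the BCR-ABL1 kinase. Per the labels, each culture of 5000000 cells was transfected with 500 pmol of either a mimic of the microRNA strand hsa-miR-92a-1-5p (miR92a 1 to 3, 3 libraries) or a negative-control mimic (scramble 1 to 3, 3 libraries). Imatinib, which inhibits ABL1 and a few related kinases, was added at 1 µM to every culture 4 h later, and cells were collected after a further 24 h. Both groups thus received the drug and a transfection of the same dose and differ in the mimic, and no untreated or untransfected culture was analysed here. The libraries are labelled as biological replicates of 1 cell line, and all p-values below count each library as an independent culture. The controls other than scramble 3 differed far less from each other (chi-square per gene 4.52) than from scramble 3 (43.6 and 38.8). Whether the libraries of a group are independent was not tested. If they are not, the p-values are too low, by an amount that was not tested. The labels call the cells myeloblasts. Of 8 myeloblast markers, MPO had no count in any library and ELANE at most 0.0381 CPM (counts scaled to library size), AZU1 and CSF3R reached 4.82 and 4.94 CPM, and CD33 was detected throughout at 14 to 20.7 CPM. The erythroid factor GATA1 stood at 171 to 222 CPM.

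A kinetochore is the protein assembly that forms on the centromere of each chromosome and binds the microtubules of the spindle. Its inner layer sits on nucleosomes with the histone variant CENP-A, its outer layer holds the NDC80 complex that grips microtubules, and a corona of further proteins on the outside catches microtubules early in mitosis. Unattached kinetochores feed the spindle checkpoint, which delays anaphase, and the chromosomal passenger complex corrects wrong attachments before moving to the cell middle, where a central spindle and a contractile ring divide the cell. Many of these genes are transcribed mainly in late S, G2 and M phase, so in a bulk sample more cells in those phases and more RNA per cell cannot be told apart.

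Totals were 24751862 to 25982085 counts in 5 libraries and 704448 in miR92a 1, which is 36-fold below the median of the others. There the 46 genes had 6 to 374 counts each (median 71.5, a Poisson coefficient of variation of 11.8%), and 11 of them had fewer than 30. In each of the other libraries the lowest of the 46 had at least 297 counts. The mitochondrially encoded share of counts was 8.81% to 11.2% in the control and 8.71% to 9.96% in the mimic libraries, and these ranges overlap. Summed levels also overlapped for the 10 erythroleukaemia markers (11925 to 19552 and 9423 to 18465 CPM), the 6 lymphoid markers (7.92 to 8.77 and 7.71 to 8.81 CPM) and the 6 fibroblast and epithelial markers (225 to 291 and 235 to 297 CPM, mostly EPCAM and KRT19). Globins make up most of the erythroleukaemia sum, and inside the lists single genes did not overlap: TFRC was 1325 to 2029 CPM in the control and 833 to 1218 CPM in the mimic libraries, and KLF1 262 to 277 and 281 to 321 CPM. COL1A1 (2.33 to 3.71 and 0 to 1.08 CPM) and CD79A (0.196 to 0.332 and 0 to 0.191 CPM) were also lower in all mimic libraries. In miR92a 1, however, 3 counts stand for 4.26 CPM on its unscaled total, so its values for markers this low say little. The part of TFRC, KLF1, COL1A1 and CD79A in the results was not tested. The 8 myeloblast markers summed to 26.2 to 30 CPM in the control and 16.3 to 25.9 CPM in the mimic libraries, and the part of this difference in the results was not tested.

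The 46 genes were mostly higher with the mimic. Together they took up 0.507%, 0.496% and 0.45% of all counts in scramble 1, 2 and 3 and 0.63%, 0.601% and 0.587% in miR92a 1, 2 and 3, so the groups did not overlap. The median log2 fold change, mimic minus control, was 0.30 for the 46 genes and -0.01 for all tested genes, and 41 of the 46 lay above 0, where 48.3% of all tested genes did. The test on groups alone, without regard to replicate numbers, called 2 genes higher, NDC80 and BUB3, or 4.35% of the 46 against 0.433% of all tested genes (two-tailed quasi-likelihood test of edgeR, 3 libraries per group, p adjusted by Benjamini-Hochberg over all tested genes, threshold 0.05). None was called lower, against 0.976% of all tested genes. DESeq2 called 7 higher and none lower (0.963% and 1.7% of all tested genes), and limma-voom called 2 higher and none lower (0.639% and 1.25%). The 7 were NDC80, BUB3, CENPA, CENPH, CENPF, NUSAP1 and ANLN. For single genes below, adjusted p-values on groups alone are those of edgeR unless another tool is named. At an unadjusted p under 0.05 in edgeR, 24 were higher and 1 was lower, with 6% and 7.51% of all tested genes in those directions. In 23 genes all mimic libraries exceeded all control libraries (9.73% of all tested genes) and in 1, RACGAP1, all lay below (11.5%).

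With the replicate number added to the model as a block, so that each mimic library is set against the control library of the same number, 23 of the 46 rose and 1 fell. The same fit called 4.57% of all tested genes higher and 6.7% lower. On simulated counts without pairs the blocked edgeR fit made false calls at more than its nominal rate, so both other tools were also run with the block. The edgeR fit on groups alone and limma-voom with the block exceeded that rate as well, and DESeq2 was not simulated. With the block limma-voom called 21 of the 46 higher and 1 lower (3.91% and 5.5% of all tested genes), leaving out MAD2L1 and INCENP. DESeq2 with the block called 18 higher and 1 lower (2.98% and 4.5%), leaving out SPC24, SPC25, BUB1B, MAD2L1 and INCENP, and the lower gene was RACGAP1 in each. Libraries with the same number deviated together most clearly in replicate 3. Over the 4829 genes averaging 1000 counts or more, deviations from the group mean correlated at 0.634 there. Scramble 1, however, went with miR92a 2 (0.517) more than with miR92a 1 (0.37). Taking replicates 1 and 2 as numbered pairs is therefore an assumption of the blocked fit. Blocked values stand beside each call that they change. Both calls on groups alone needed all 6 libraries, since NDC80 missed the threshold without any one of them (adjusted p 0.0617 to 0.22), and so did BUB3 (0.0645 to 0.229). In the blocked fit both stayed past the threshold without each pair. Without scramble 1, scramble 2, miR92a 1 or miR92a 2 no gene of the 46 was called, and without scramble 3 or miR92a 3 a single one was, NUSAP1 and CENPH respectively. In the blocked fit 19, 16 and 21 of the 46 were called higher without pair 1, pair 2 and pair 3, and pair 1 is the one with the shallow library. Without pair 3 only libraries 1 and 2 of each group remain, and scramble 1 and 2 differed far less from each other than from scramble 3. How far this lowers the p-values of that fit was not tested.

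**Figure D1:**
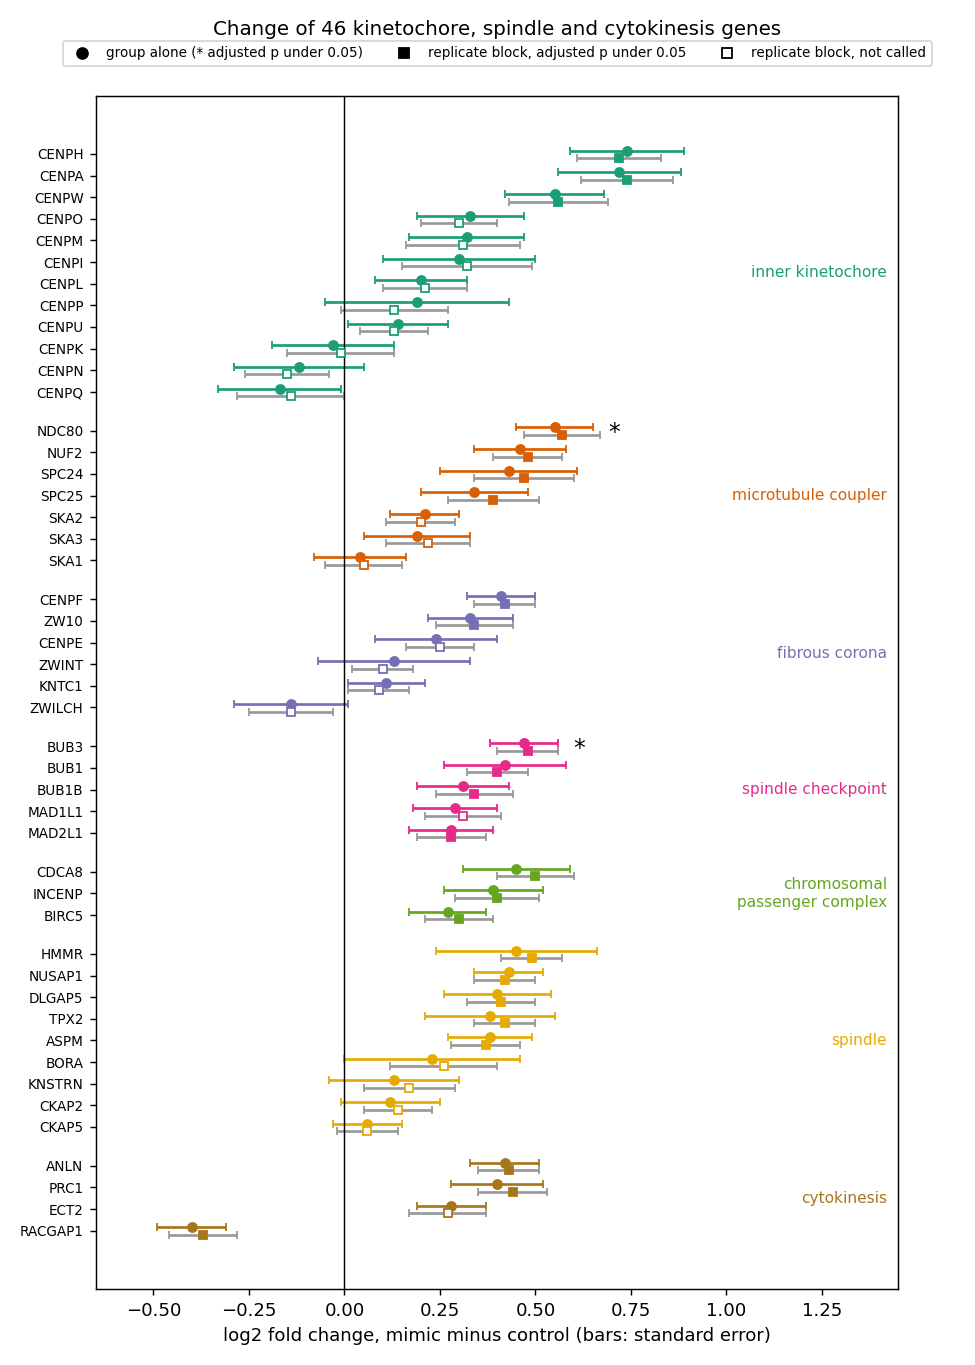
Log2 fold change, mimic minus control, of each of the 46 genes (horizontal axis) grouped by role (vertical axis); circles give the fit on groups alone and squares the fit with the replicate block, filled where the blocked adjusted p is under 0.05, and bars are standard errors. Most points lie right of 0, the asterisks mark NDC80 and BUB3, and RACGAP1 is the lowest point at -0.40.

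The counts given by role stand beside 4.57% of all tested genes that rose and 6.7% that fell in the blocked fit. Without overlap between groups, 9.73% of all tested genes were higher and 11.5% lower. The inner kinetochore had the widest range of log2 fold changes of the 7 roles, -0.17 to 0.74. Of its 12 genes 9 had a log2 fold change above 0 (median 0.25), and 3 rose in the blocked fit. On groups alone none passed in edgeR, while CENPA and CENPH passed in DESeq2 (adjusted p = 0.0072 and 0.00182). CENPA encodes the histone H3 variant that marks the centromere (chromosome 2, 26764289 to 26801067, GRCh38). It stood at 34.1, 36.2 and 26.7 CPM in scramble 1, 2 and 3 and at 68, 50.5 and 49 CPM in miR92a 1, 2 and 3. All mimic libraries were above all control libraries, and scramble 3 was the lowest of the 6. The log2 fold change was 0.72 ± 0.16 (SE, adjusted p = 0.0837) on groups alone and 0.74 ± 0.12 in the blocked fit (adjusted p = 3.1e-04). Exons of CENPA share 138 bases with SLC35F6 on the same strand.

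CENPH, a subunit of the constitutive centromere-associated network (chromosome 5, 69189548 to 69210357), had the largest log2 fold change of the 46. Its levels were 44.3, 45.2 and 41.9 CPM in the control and 85.7, 81.4 and 58 CPM in the mimic libraries. The control values were close together and miR92a 3 was the lowest of the mimic group. The log2 fold change was 0.74 ± 0.15 (adjusted p = 0.0609) and 0.72 ± 0.11 with the block (adjusted p = 1.6e-04). CENPI and CENPK form a complex with CENPH. CENPI had 13, 11.7 and 12.8 CPM in the control and 8.16, 15.8 and 17.3 CPM in the mimic libraries, where the first rests on 6 counts (95% Poisson interval 2.99 to 17.8 CPM). CENPK had 23.1, 20.3 and 21.1 CPM against 21.8, 24.4 and 17.7 CPM, a log2 fold change of -0.03 ± 0.16. For both the groups overlapped, unlike for CENPH.

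CENPW, a histone-fold partner of CENP-T, rose in the blocked fit by 0.56 ± 0.13 (adjusted p = 0.0063), from 28.2, 26.2 and 26.2 to 36.7, 35.1 and 44.5 CPM. CENPU, a subunit that recruits the kinase PLK1, did not pass (93.3, 92.2 and 108 CPM against 84.4, 105 and 124 CPM). The remaining 7, CENPL, CENPM, CENPN, CENPO, CENPP, CENPQ and CENPU, had log2 fold changes from -0.17 (CENPQ) to 0.33 (CENPO) and none passed in either fit. Only CENPM of these had groups that did not overlap (12.8 to 14.4 and 15.4 to 18.2 CPM). CENPL, CENPN, CENPO, CENPP and CENPU share exon bases with genes on the opposite strand, and the library strand is not given in the sources used here, so reads of these partners cannot be told apart from theirs. Altogether, 15 of the 46 genes share at least 50 exon bases with another gene, and the same limit holds, among others, for ZWILCH (with RPL4 and LCTL), BORA (with DIS3), HMMR, ANLN and RACGAP1. NUSAP1 and BUB1B overlap a gene on their own strand.

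All 4 subunits of the NDC80 complex, the main microtubule coupler of the outer kinetochore, rose in the blocked fit, while none of the 3 subunits of the SKA complex, which loads onto NDC80 on microtubules, passed in either fit. NDC80 itself (chromosome 18, 2571511 to 2616635) measured 73.8, 67.3 and 62.2 CPM in scramble 1 to 3 and 95.2, 96.5 and 104 CPM in miR92a 1 to 3. The gap between the groups exceeded the spread within either one. This was a log2 fold change of 0.55 ± 0.10, or 1.46-fold (adjusted p = 0.0421), and 0.57 ± 0.10 with the block (adjusted p = 4.0e-04).

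NUF2, the partner of NDC80 in its microtubule-binding arm, stood at 67.9, 65 and 56.5 CPM and at 99.3, 88.4 and 78.2 CPM. It rose by 0.48 ± 0.09 in the blocked fit (adjusted p = 0.0018) and missed the threshold on groups alone (0.134). SPC24 and SPC25 anchor the complex to the inner kinetochore. SPC24 had 43, 42.1 and 35.1 CPM in the control and 34, 62.2 and 55.6 CPM in the mimic libraries, so its groups overlapped because of miR92a 1, which had 25 counts (22 to 50.2 CPM). SPC25 had 38.3, 37.6 and 28.6 CPM against 39.5, 46.8 and 43.6 CPM without overlap. Their blocked log2 fold changes were 0.47 ± 0.13 and 0.39 ± 0.12 (adjusted p = 0.0224 and 0.0413), and both missed the threshold in DESeq2 with the block.

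In the SKA complex, SKA2 had 84.5, 85.1 and 81.8 CPM in the control and 102, 101 and 89.4 CPM in the mimic libraries. These values did not overlap, but the adjusted p was 0.386 on groups alone and 0.158 with the block (0.0381 when pair 3 is left out). SKA1 had 78.7, 76.9 and 68.1 CPM against 69.4, 86.7 and 69.7 CPM, among the smallest log2 fold changes of the 46 (0.04 ± 0.12). SKA3 lay between them at 0.19 ± 0.14. Whether the SKA and NDC80 subunits differ in response was not tested.

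Of the 6 genes grouped here under the corona 2 rose in the blocked fit, CENPF and ZW10. CENPF, a large coiled-coil protein that links the corona to the dynein machinery and is most abundant in G2 and M phase, had 380, 378 and 319 CPM in the control and 487, 478 and 464 CPM in the mimic libraries. Its mimic values differed by little and all exceeded the controls, with scramble 3 lowest. The log2 fold change was 0.41 ± 0.09 (adjusted p = 0.0899), and 0.42 ± 0.08 with the block (adjusted p = 0.0012). ZW10, KNTC1 and ZWILCH form the RZZ complex, which brings dynein and the checkpoint proteins MAD1 and MAD2 to the kinetochore. ZW10 had 55.4, 50.6 and 55.9 CPM against 65.3, 63.1 and 74.1 CPM (blocked adjusted p = 0.0287). KNTC1 and ZWILCH had log2 fold changes of 0.11 ± 0.10 and -0.14 ± 0.15 with overlapping groups.

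ZWINT, grouped here with the corona genes as a binding partner of ZW10, differed more by replicate number than by group. It had 120, 121 and 170 CPM in scramble 1 to 3 and 124, 125 and 191 CPM in miR92a 1 to 3, so replicate 3 was the high library of both groups. CENPE, the kinesin that carries chromosomes to the spindle equator, showed the opposite order, with 113, 102 and 86.5 CPM and then 148, 123 and 95.4 CPM. Neither passed in either fit.

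Spindle checkpoint genes were all on the positive side, with log2 fold changes of 0.28 to 0.47, and 4 of the 5 rose in the blocked fit. BUB3, a WD-repeat protein that docks the BUB kinases onto kinetochores (chromosome 10, 123154277 to 123170467), had 161, 155 and 141 CPM in the control and 210, 222 and 201 CPM in the mimic libraries. The lowest mimic value was well above the highest control value. The log2 fold change was 0.47 ± 0.09, or 1.38-fold (adjusted p = 0.0498), just inside the threshold, and 0.48 ± 0.08 with the block (adjusted p = 4.5e-04). A processed pseudogene, BUB3P1, had no count in any library.

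BUB1, the kinase that BUB3 brings to the kinetochore, stood at 306, 301 and 373 CPM and at 366, 387 and 542 CPM. Replicate 3 was highest in both groups, and scramble 3 exceeded miR92a 1, so the groups overlapped. Its log2 fold change had an SE of 0.16 on groups alone (0.42, adjusted p = 0.3) and of 0.08 with the block (0.40, adjusted p = 0.0021). BUB1B encodes the checkpoint protein BUBR1 and MAD2L1 the MAD2 protein that inhibits the anaphase-promoting complex. They rose in the blocked fit by 0.34 ± 0.10 and 0.28 ± 0.09 (adjusted p = 0.0279 and 0.0481), but MAD2L1 passed with neither other tool and BUB1B not with DESeq2. MAD1L1, which holds MAD2 at kinetochores, had 56, 58.4 and 47.5 CPM against 66.7, 67.3 and 64.1 CPM, and its blocked adjusted p was 0.0556.

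The 3 genes of the chromosomal passenger complex all rose in the blocked fit and had groups that did not overlap. CDCA8 (borealin) and BIRC5 (survivin) bring the complex to centromeres, and INCENP is the scaffold that activates the kinase Aurora B. CDCA8 had 99.4, 101 and 71.1 CPM in the control and 116, 131 and 121 CPM in the mimic libraries. INCENP had 96.1, 99.9 and 79.6 CPM and then 103, 113 and 137 CPM. BIRC5 had 130, 126 and 105 CPM and then 151, 145 and 142 CPM. In each case scramble 3 was the lowest of the 6 libraries. Blocked log2 fold changes were 0.50 ± 0.10, 0.40 ± 0.11 and 0.30 ± 0.09 (adjusted p = 0.0022, 0.0211 and 0.0298), while on groups alone the adjusted p was 0.213, 0.247 and 0.304. INCENP missed the threshold with the block in limma-voom and DESeq2.

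**Figure D2:**
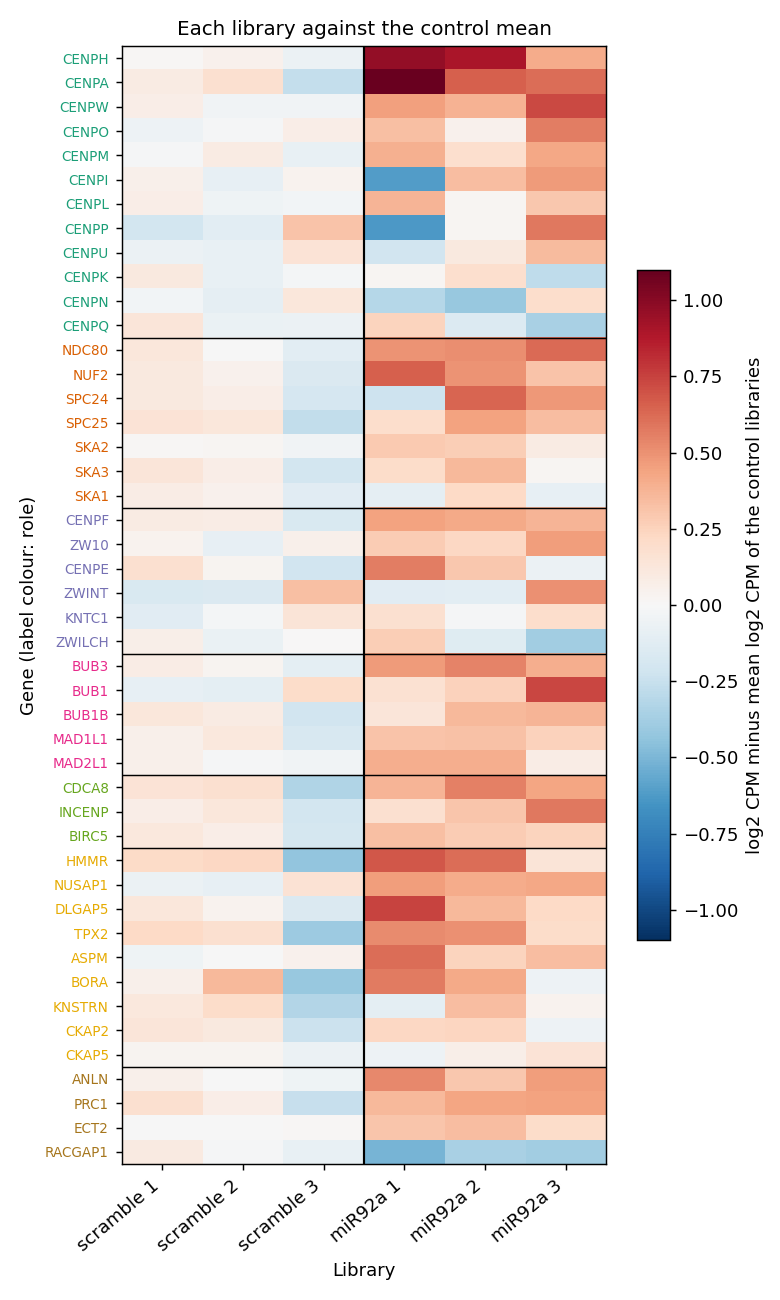
Log2 CPM of each of the 46 genes (rows, grouped by role) in each library (columns), minus the mean log2 CPM of the 3 control libraries; red is higher and blue is lower. The 3 mimic columns are mostly red, scramble 3 is the bluest control column, and the RACGAP1 row runs the other way.

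Among the 9 spindle genes, 5 rose in the blocked fit and none fell. NUSAP1, which bundles microtubules near chromosomes, had 142, 140 and 166 CPM against 205, 197 and 200 CPM. Here scramble 3 was the highest control, and the mimic libraries still lay above it. The log2 fold change was 0.43 ± 0.09 (adjusted p = 0.0789), and 0.42 ± 0.08 with the block (adjusted p = 0.0023). ASPM, a spindle pole protein, had 198, 204 and 212 CPM and then 313, 242 and 259 CPM, a blocked log2 fold change of 0.37 ± 0.09 (adjusted p = 0.0077).

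TPX2, which activates Aurora A and nucleates spindle microtubules, had 414, 401 and 269 CPM in the control and 509, 504 and 408 CPM in the mimic libraries. Both replicate 3 libraries were low, and miR92a 3 fell just under scramble 1. HMMR, a microtubule-associated protein of the spindle poles, had the same shape, with 123, 124 and 78.5 CPM and then 171, 163 and 117 CPM. The SE of the log2 fold change dropped from 0.17 on groups alone to 0.08 with the block for TPX2 and from 0.21 to 0.08 for HMMR. Blocked adjusted p-values were 0.0017 and 6.2e-04, against 0.375 and 0.399 on groups alone. DLGAP5, a kinetochore-fibre stabiliser, rose by 0.41 ± 0.09 in the blocked fit (adjusted p = 0.0042).

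CKAP5, the microtubule polymerase ch-TOG, had 489, 489 and 459 CPM and then 461, 500 and 530 CPM, a log2 fold change of 0.06 ± 0.09. CKAP2, KNSTRN and BORA had 0.12 ± 0.13, 0.13 ± 0.17 and 0.23 ± 0.23. In these 4 genes the groups overlapped and no fit passed.

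The 4 cytokinesis genes did not overlap between groups, 3 being higher and 1 lower with the mimic (9.73% and 11.5% of all tested genes). ANLN (anillin), a scaffold of the contractile ring, had 222, 213 and 207 CPM in the control and 309, 263 and 295 CPM in the mimic libraries. Its log2 fold change was 0.42 ± 0.09 (adjusted p = 0.0701) on groups alone, and it rose by 0.43 ± 0.08 in the blocked fit (adjusted p = 0.0013). PRC1, which bundles the antiparallel microtubules of the central spindle, had 149, 139 and 111 CPM and then 169, 178 and 179 CPM (blocked 0.44 ± 0.09, adjusted p = 0.0037). Exons of PRC1 share 3181 bases with AC068831.7 on the same strand and 406 with an antisense gene. ECT2, the exchange factor that activates RHOA at the cell equator, had 54.9, 55 and 55.6 CPM against 68, 69.7 and 63.3 CPM. Its control values were nearly equal, yet the blocked adjusted p was 0.0831.

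RACGAP1 encodes a subunit of centralspindlin, the complex that recruits ECT2 to the central spindle (chromosome 12, 49976923 to 50033136, minus strand). It was the lowest of the 46 in log2 fold change, with 120, 111 and 106 CPM in the control and 78.9, 87.5 and 86.2 CPM in the mimic libraries. Every mimic library lay below every control library. The log2 fold change was -0.40 ± 0.09 (adjusted p = 0.097) on groups alone, and it fell by 0.37 ± 0.09 in the blocked fit (adjusted p = 0.0101). That call was kept without pair 3 (adjusted p = 1.0e-04) but lost without pair 1 or pair 2 (up to 0.0978). The fit without pair 3 rests on libraries 1 and 2 of each group, whose independence was not tested.

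The partner of RACGAP1 in centralspindlin and the genes around it come from a second list, 54 further centromere, checkpoint, spindle and cytokinesis genes of which 51 were matched to the table. On groups alone edgeR called 1 of the 51 higher and none lower, DESeq2 4 and none, and limma-voom 2 and none. Of all tested genes these tools called 0.433%, 0.963% and 0.639% higher and 0.976%, 1.7% and 1.25% lower. At an unadjusted p under 0.05 in edgeR 16 were higher and 2 lower, where 6% and 7.51% of all tested genes were. Their median log2 fold change was 0.16. In the blocked fit 16 rose and 2 fell, where 4.57% and 6.7% of all tested genes did. The gene that passed on groups alone was CIT, the citron kinase of the midbody, with 68.2, 70.7 and 55.1 CPM and then 113, 113 and 115 CPM (0.81 ± 0.11, adjusted p = 0.0133). It missed the threshold without scramble 1, miR92a 1 or miR92a 2 (adjusted p up to 0.0712) and rose by 0.84 ± 0.10 in the blocked fit.

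KIF23, the motor subunit that pairs with RACGAP1, rose in the blocked fit by 0.70 ± 0.12 (adjusted p = 7.4e-04), from 54.8, 41.5 and 30.9 to 73.5, 57 and 66.1 CPM. RHOA, the GTPase at the end of this pathway, fell in the blocked fit by 0.32 ± 0.08 (adjusted p = 0.0097), from 346, 362 and 371 to 269, 304 and 290 CPM. The other gene to fall was TUBG1, the gamma-tubulin of microtubule nucleation (-0.39 ± 0.10, adjusted p = 0.0105). KIF23, RHOA and TUBG1 were named after their values were seen. HJURP, the chaperone that loads CENP-A, had 82.8, 78.7 and 71.6 CPM and then 109, 107 and 110 CPM (0.48 ± 0.09, adjusted p = 0.0507, and 8.5e-04 with the block). AURKB, the kinase of the chromosomal passenger complex, and TACC3, which cross-links kinetochore fibres, rose in the blocked fit by 0.57 ± 0.13 and 0.62 ± 0.09 (adjusted p = 0.0051 and 9.0e-05).

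Within numbered pairs, 34 of the 46 genes were higher in the mimic library of all 3 pairs and 1, RACGAP1, was lower in all 3. Of the 14543 tested genes 2901 were higher in all pairs and 3563 lower. Log2 differences here use CPM with a prior count of 2. Their median over the 46 was 0.26, 0.27 and 0.39 in pairs 1, 2 and 3, with 36, 42 and 42 genes above 0. For all 14543 tested genes the medians were -0.07, 0.00 and -0.01, with 6418, 7307 and 7091 above 0. Pair 3 had the largest median in the microtubule couplers (0.07, 0.31 and 0.47), the checkpoint genes (0.26, 0.36 and 0.51) and the passenger complex (0.22, 0.20 and 0.76), whereas the spindle genes were highest in pair 1 (0.48, 0.25 and 0.36).

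Among the controls scramble 3 stood lowest, holding the lowest of the 6 values in 27 of the 46 genes and in 2669 of the 14543 tested. Its median distance from the control mean was -0.08, against 0.07 and 0.03 for scramble 1 and 2, and 0.00 over all tested genes. The mimic libraries stood at 0.31, 0.32 and 0.32, so the 3 were alike in this median despite the 36-fold gap in depth. Without scramble 3 the median log2 fold change of the 46 was 0.27, and without miR92a 1 it was 0.30. In HMMR, TPX2, BORA and CKAP2 replicate 3 was low in both groups, with log2 differences from replicates 1 and 2 of -0.65, -0.60, -0.63 and -0.36 in the control and -0.51, -0.31, -0.55 and -0.29 in the mimic group. CENPP, ZWINT, BUB1 and CENPN were high there in both groups. These genes were named after their values were seen.

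Blocked calls depended on which pair was kept. Of the 24 called genes 13 were also called without each of the 3 pairs in turn. Without pair 1, 5 calls were lost (ZW10, MAD2L1, BIRC5, ASPM and RACGAP1, adjusted p 0.0541 to 0.147). Without pair 2, 8 were lost (SPC24, SPC25, ZW10, BUB1B, MAD2L1, BIRC5, NUSAP1 and RACGAP1, 0.0871 to 0.599). Without pair 3, 5 were lost (CENPW, SPC25, BUB1B, INCENP and BIRC5, 0.0826 to 0.285). The calls kept in that last fit rest on libraries 1 and 2 of each group, whose independence was not tested. BIRC5 thus needed all 3 pairs, while CENPA, CENPH, NDC80, NUF2, CENPF, BUB3, BUB1, CDCA8 and ANLN were among those called each time.

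**Figure D3:**
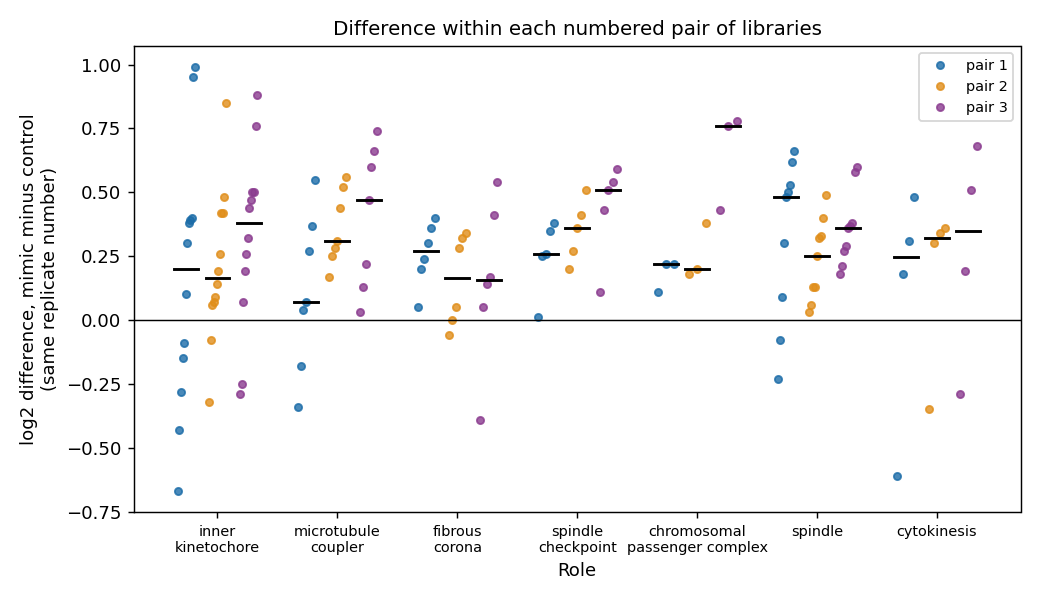
Log2 difference between the mimic and control library of the same replicate number (vertical axis) for each of the 46 genes, by role (horizontal axis) and pair (colour); black bars are medians. In the passenger complex pair 3 has a median of 0.76 against 0.22 and 0.20, and the single low point of each pair under cytokinesis is RACGAP1.

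Promoters of these genes shared a short motif that the choice of genes did not use. The cell cycle genes homology region, a promoter element of many genes transcribed in G2 and M phase, was searched as TTTGAA or TTCGAA on both strands (TTCGAA is its own reverse complement, and TTTGAA reads TTCAAA on the other strand) in RefSeq windows from 250 bases before to 50 after the gene start (GRCh38.p14). A window was found for 38 of the 46, and 26 of them (68.4%) held a match. Where a gene had several windows, the one with the most matches was kept, among the 46 as among all genes. Of the 46 this concerned CENPP, ZWINT and ECT2. The share was 15.6% of 10265 tested genes with a window and 19.5% of all 27305 genes with one. Matches that start within 50 bases of the gene start were present in 23 of the 38 (60.5%), 4.73% of the tested genes and 6.06% of all. To make the position visible, the 80 bases from 50 before the gene start are shown for 8 genes, with matches in capitals. The 8 were picked from genes that rose in the blocked fit and have a match in that stretch. Of the genes that rose, SPC24 had no match, and ZW10 (-224) and ASPM (-113), among others, had theirs outside it. Gene starts here are those of RefSeq, while the gene spans given above are from GENCODE, and the sources can differ. The RefSeq start of CENPA lies inside its GENCODE span.
CENPA (chr2:26786006-26786085, plus strand): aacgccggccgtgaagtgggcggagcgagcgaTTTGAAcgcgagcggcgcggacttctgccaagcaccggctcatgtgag
CENPW (chr6:126340065-126340144, plus strand): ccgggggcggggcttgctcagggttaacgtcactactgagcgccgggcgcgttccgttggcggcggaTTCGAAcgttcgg
NDC80 (chr18:2571507-2571586, plus strand): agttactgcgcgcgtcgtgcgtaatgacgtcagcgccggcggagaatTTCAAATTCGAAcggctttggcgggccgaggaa
NUF2 (chr1:163321904-163321983, plus strand): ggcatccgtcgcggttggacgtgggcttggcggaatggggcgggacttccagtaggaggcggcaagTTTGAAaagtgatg
BUB1 (chr2:110678034-110678113, minus strand): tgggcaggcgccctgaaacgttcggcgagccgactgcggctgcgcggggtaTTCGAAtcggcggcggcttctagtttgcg
CDCA8 (chr1:37692466-37692545, plus strand): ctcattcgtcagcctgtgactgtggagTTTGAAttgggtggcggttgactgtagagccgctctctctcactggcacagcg
NUSAP1 (chr15:41332831-41332910, plus strand): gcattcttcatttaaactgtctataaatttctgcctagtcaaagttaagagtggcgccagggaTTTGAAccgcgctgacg
ANLN (chr7:36389812-36389891, plus strand): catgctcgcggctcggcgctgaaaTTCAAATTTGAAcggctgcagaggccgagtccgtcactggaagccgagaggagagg

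In NDC80 and ANLN a TTCAAA is followed directly by a second match, TTCGAA in NDC80 and TTTGAA in ANLN. In CENPA, CDCA8 and ANLN the matches lie upstream of the start, and in CENPW, NUF2, BUB1 and NUSAP1 downstream of it.

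Genes with a match had the higher median log2 fold change, 0.39 for the 26 against 0.16 for the 12 without. Of the 19 genes with a window that rose in the blocked fit 18 (94.7%) held a match, SPC24 being the exception, and of the 19 that passed in neither direction 8 (42.1%) did. Outside the 46, matches were in 20.8% of 490 tested genes that rose in the blocked fit, in 15.5% of 762 that fell and in 15.1% of 8975 not called. For all tested genes the median was -0.02 with a match and -0.01 without. These shares are descriptions of letters in a window and were not tested.

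**Figure D4:**
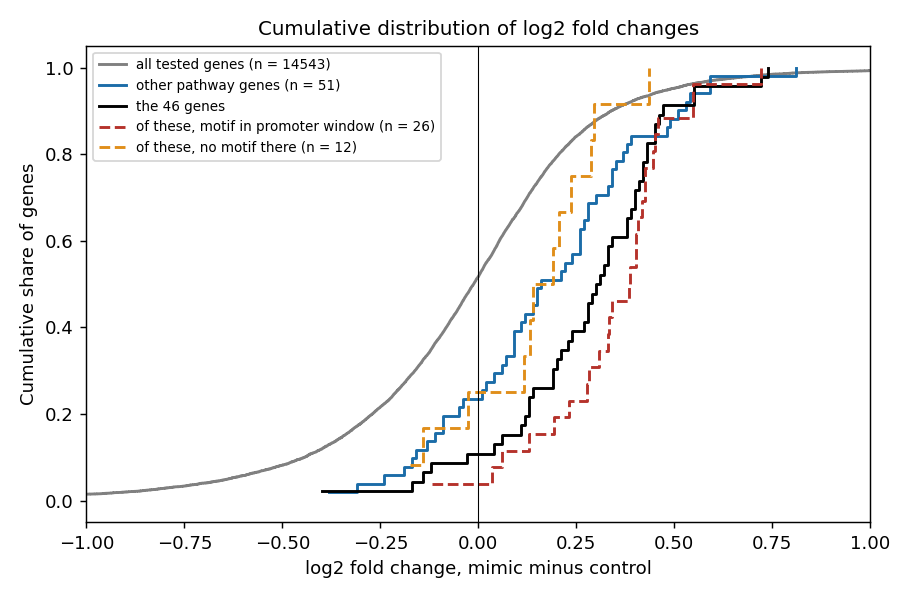
Cumulative share of genes (vertical axis) against log2 fold change, mimic minus control, on groups alone (horizontal axis, shown from -1 to 1) for all tested genes, the 51 further genes of the second list, the 46 genes, and the 46 split by a promoter match. The curve of the 46 lies to the right of that of all tested genes, with medians of 0.30 and -0.01, and that of the 26 genes with a match lies furthest right over most of its range.

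Matches to the seed of the mimic were sought in the longest annotated 3′ UTR of each gene (GENCODE release 29, GRCh38). The seed is bases 2 to 8 of the mature strand, in capitals here as given by RefSeq.
hsa-miR-92a-1-5p: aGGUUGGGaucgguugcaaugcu
Its match is CCCAACC (7mer-m8), CCAACCA (7mer-A1) or both together (8mer). Of the 46 genes 6 (13%) held one, against 16.9% of all 12888 tested genes for which a 3′ UTR was found. The sites are printed with their flanks and the match in capitals, to show which stretch of each transcript is complementary to the seed.
RACGAP1 (7mer-m8, chr12:49989483-49989512, minus strand): gcccccataccCCCAACCttgtccagtgga
SPC25 (7mer-m8, chr2:168871197-168871226, minus strand): ctcccccctccCCCAACCcacaacagtccc
ZWINT (8mer, chr10:56358147-56358176, minus strand): ttccctcacctCCCAACCAtcattacagga
BIRC5 (7mer-m8, chr17:78224455-78224484, plus strand): gtgtctgtcagCCCAACCttcacatctgtc
KNSTRN (7mer-m8, chr15:40393765-40393794, plus strand): aagcaagttttCCCAACCttcaggttggtc
ECT2 (7mer-A1, chr3:172818770-172818799, plus strand): gagatttgCCAACCActaatggaaacaagc

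The median log2 fold change was 0.20 for these 6 genes and 0.32 for the 40 without a match. For all tested genes it was -0.13 with and 0.01 without. RACGAP1, the gene that fell in the blocked fit, held a site at base 767 of a 3′ UTR of 1106 bases. SPC25 and BIRC5 rose in the blocked fit with a 7mer-m8 each, and ZWINT, which held the 8mer, had a log2 fold change of 0.13 ± 0.20. Whether the mimic acted on any of these sites was not tested, and which 3′ UTR isoforms K562 cells use was not measured.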

How the data were processed

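The authors deposited 1 table of estimated counts, all whole numbers, with 1 row a gene symbol. Kallisto and the build GRCh38 are named per the submitters' processing notes. The kallisto version, the annotation, strandedness and how transcripts were summed are not given in the sources used here. Columns were matched to samples by the names in the labels, and all per-sample columns were used. Of 35615 symbols 12102 were 0 in all libraries.

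Counts were filtered with filterByExpr, scaled by TMM and tested with the edgeR 4.0.16 quasi-likelihood test on group alone in R 4.3.3, with Benjamini-Hochberg adjustment over 14543 genes at a threshold of 0.05. Standard errors come from the fold change and F (|log2 fold change| over the root of F). CPM use TMM-scaled totals. On totals without that scaling, 3 counts stand for 0.115 to 0.121 CPM, or 4.26 CPM in miR92a 1. Intervals cover counting error only. For libraries sharing a number, the correlation of deviations from their group's mean was 0.154, 0.16 and 0.42 (all tested genes) or 0.37, 0.475 and 0.634 (the 4829 genes averaging 1000 counts or more). By these values, not by the labels, the numbers were taken as pairs. Among the abundant genes scramble 1 was closest to miR92a 2 (0.517). The values set replicate 3 apart but leave the pairing of replicates 1 and 2 unsettled. Replicate libraries differed beyond counting noise, but unevenly. Chi-square per gene was 4.52 for scramble 1 against 2, and 43.6 and 38.8 for scramble 1 and 2 against scramble 3. In the mimic group it was 39.5 for miR92a 2 against 3. The shallow miR92a 1 gave 2.02 against miR92a 2 and 4.29 against miR92a 3. How far libraries 1 and 2 of a group are independent of each other was not tested. Alternatives were RLE size factors, DESeq2 1.42.0, limma-voom (limma 3.58.1), 2 other filters, the replicate block, each library left out, and the block with each pair left out. The code was tested on simulated counts, where the blocked edgeR fit exceeded its nominal rate of false calls. For that reason limma-voom and DESeq2 with the block were added after the data had been seen. In the simulation edgeR on groups alone and limma-voom with the block also exceeded the rate. Sequence searches used Python 3.11.15 and figures matplotlib 3.10.9.

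The genes, lists and tests were chosen with earlier results of these data known. Genes named by rule were, in each of 7 roles, the 2 with the smallest p and the one with the highest mean CPM, then the highest, the lowest and the 3 log2 fold changes nearest 0, and every gene past the threshold; of the second list, those past the threshold or else the one with the smallest p in each role. The rest of the 46 were named after their values were seen, to account for all of them.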

Additional observations from a re-analysis of the deposited data

How the results depend on the processing

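The median log2 fold change of the 46 genes kept its sign and lay between 0.25 and 0.36 under all 17 alternatives. On groups alone, the number of them called higher was 7 with DESeq2 and 4 with no filter; of the 51 further genes 2 were called higher with RLE size factors, limma-voom or a mean of at least 1 CPM and 4 with DESeq2, and of all tested genes DESeq2 called 140 higher and 247 lower. In the fit with a replicate block the counts were 23 higher and 1 lower of the 46, 16 higher and 2 lower of the 51, and 664 higher and 975 lower of all tested genes; of the 24 genes named by rule, 16 that had missed the threshold passed with the block, and none changed sign. The block with limma-voom and with DESeq2, added after seeing the data, gave 21 and 18 of the 46 higher and 1 lower each, 14 and 12 of the 51 higher and 2 lower each, and 568 and 434 higher and 800 and 655 lower among all; CENPK was 0.02 with the former. Leaving out 1 library gave 0 to 1 of the 46 higher, 0 to 1 of the 51 higher, and 14 to 53 higher and 56 to 148 lower among all tested genes; these fits rest on fewer libraries. The block without pair 1, pair 2 and pair 3 gave 19, 16 and 21 of the 46 higher and 0, 0 and 1 lower, 14, 8 and 13 of the 51 higher and 1, 0 and 2 lower, and 486, 285 and 554 higher and 751, 549 and 866 lower among all. Among the genes near 0, CENPK ranged from -0.21 to 0.14 with 1 library left out (0.03 without scramble 1, 0.14 without miR92a 3), and was 0.01 and 0.18 with the block without pair 1 and pair 3. SKA1 ranged from -0.10 to 0.12 (-0.02 without scramble 3, -0.10 without miR92a 2) and was -0.05 with the block without pair 2, and CKAP5 was -0.01 with the block without pair 3. Apart from the alternatives that use fewer libraries, the cause of these shifts was not tested. Genes such as CENPI and CENPP, with 6 and 12 counts in miR92a 1, are limited by depth there.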
